A study of Homo sapiens with 4 samples.

Results

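MCF10DCIS.com is a human breast cell line of the MCF10A series that forms lesions like ductal carcinoma in situ in mice. The cells described here are the human tumour cells with the largest share of their RNA on S100A8, SERPINA1 and IGFBP6, called the chosen cells below. They were taken as the top 8% of human barcodes over both pools by the share of human unique molecular identifiers (UMIs) on those 3 genes, which gave 348 of 4348 human cells. Of these, 212 came from 2210 human cells of the young pool and 136 from 2138 of the aged pool. The other 4000 human cells, 1998 young and 2002 aged, are the remaining cells. Since S100A8, SERPINA1 and IGFBP6 chose the cells, their levels are a description and support nothing else. The chosen cells are also a range and not a separate type. The last cell taken had 851 CPM (UMIs on the 3 genes per 1000000 human UMIs) and the first one left out 846 CPM. The 10 lowest chosen cells lay between 851 and 875 and the 10 highest cells left out between 823 and 846. Within 20% of the threshold there were 53 chosen cells above it and 74 remaining cells below it.

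In the young group, MCF10DCIS.com cells were seeded on decellularised mammary extracellular matrix (dECM) from mice of 2 to 3 months, and in the aged group on dECM from mice of 18 months or more. In both groups they were grown for 12 days on the scaffold and then put into a mammary fat pad of Rag1-/- mice, which make no mature T or B cells. Tumour and adjacent stroma were collected 4 weeks later, cleared of dead cells, labelled with hashing antibodies and read with 10x 3' single-cell libraries. Both groups therefore share the cell line, the host genotype and the host's innate immune cells. They differ by the age of the dECM donor, and each group is also its own pool and library. Differences by dECM age, pool and library cannot be told apart here. There was 1 gene expression library for each group, so no test across samples was possible and no p-value or standard error is given. Intervals in brackets are exact 95% intervals for counting error only, not for the spread between tumours or animals. How many tumours or animals a pool holds is not given in the sources used here.

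S100A8 and S100A9 encode the subunits of calprotectin, a calcium- and zinc-binding alarmin that stressed or inflamed epithelia and neutrophils release. SERPINA1 encodes alpha-1 antitrypsin, an inhibitor of neutrophil elastase that is made mainly in liver and also by some epithelial and tumour cells. IGFBP6 encodes an insulin-like growth factor binding protein with a preference for IGF2.

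The median depth of the chosen cells was near that of the others in the young pool and lower in the aged pool, and their mean was lower in both. Their median was 32786 human UMIs and 5111 genes in the young pool (remaining cells 31713 and 5195) and 29842 UMIs and 4850 genes in the aged pool (31795 and 5238). The mean was 35603 against 40159 UMIs in the young and 35056 against 40974 in the aged pool. In sum they held 7547899 and 4767630 human UMIs. The median share of mitochondrial UMIs was 3.00% in young chosen cells against 4.18% in young remaining cells, and 3.06% against 4.14% in the aged pool. Among human cells, 3 barcodes occurred in both pools, and none of them was a chosen cell. A Scrublet doublet score over 0.25 was found in 6.13% of young and 5.88% of aged chosen cells, and in 6.36% and 6.14% of remaining cells.

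Most S100A8 UMIs lay in a few cells. In the young pool the chosen cells had 1718 CPM (1689 to 1748) and the remaining cells 23.4, and in the aged pool 1674 (1638 to 1711) and 18.1. Yet 39.6% of young and 37.5% of aged chosen cells had no S100A8 UMI, and the 10 cells richest in it held 58.9% and 60.4% of the chosen cells' S100A8 UMIs. The chosen cells held 87.4% of all human S100A8 UMIs of the young pool and 84.3% of the aged pool.

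SERPINA1 was spread more evenly. Its level was 1398 CPM (1372 to 1425) in young chosen cells against 70.9 in young remaining cells, and 1158 (1128 to 1189) against 63.2 in the aged pool. Only 4.72% of young and 7.35% of aged chosen cells had no SERPINA1 UMI. The remaining cells still held 35.03% of the pool's SERPINA1 UMIs in the young pool and 48.4% in the aged pool. IGFBP6 reached 393 CPM (379 to 408) against 26.7 in the young pool and 336 (319 to 352) against 21.4 in the aged pool, with none detected in 16.5% and 17.6% of chosen cells. The label "alarmin and SERPINA1-high" thus holds for the pooled sum, while many single cells were high for only one of these genes.

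**Figure D1:**
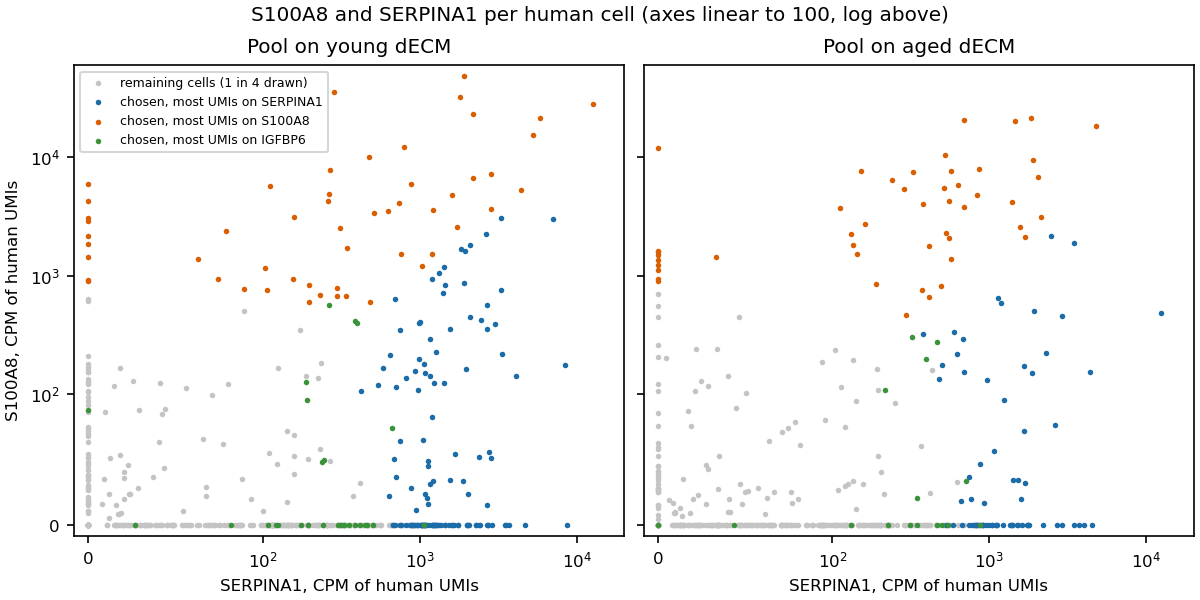
SERPINA1 (x axis) against S100A8 (y axis) in single human cells, both in CPM, in the young and the aged pool. Each point is 1 cell; coloured points are the 348 chosen cells by the marker with most UMIs, grey points are 997 of the remaining cells. Many cells with SERPINA1 above the remaining cells lie at 0 on the S100A8 axis, and the S100A8-led cells lie above them.

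Cells were also drawn after thinning each to 2000 UMIs, so that shares of cells with a UMI could be read at 1 depth (0 and 1 chosen cells and 4 and 1 remaining cells were too shallow). S100A8 was then seen in 35.4% (28.9 to 42.2) of young chosen cells, 3.41% of young remaining cells and 0.585% of young mouse cells, which carry human RNA only as background. In the aged pool the shares were 42.2% (33.8 to 51.0), 2.45% and 0.635%. Before thinning, the shares in chosen, remaining and mouse cells were 60.4%, 25.8% and 1.64% in the young pool and 62.5%, 21.6% and 1.48% in the aged pool, where the median mouse cell had 3638 and 3668 UMIs. SERPINA1 was seen after thinning in 72.2% and 71.9% of chosen cells, 11.7% and 11.2% of remaining cells, and 1.03% and 0.657% of mouse cells. The remaining human cells therefore also had S100A8 and SERPINA1 above the background seen in mouse cells.

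The 3 genes went together in part. When cells were chosen by SERPINA1 and IGFBP6 alone, S100A8, which then had no part in the choice, was 1270 CPM in the chosen and 59.2 CPM in the other cells of the young pool, a 21.5-fold difference (20.7 to 22.2), and 21.8-fold (20.9 to 22.7) higher in the aged pool. SERPINA1 was 9.89-fold (9.59 to 10.2) and 12.1-fold (11.6 to 12.6) higher in cells chosen by S100A8 and IGFBP6. IGFBP6 was 8.77-fold (8.30 to 9.27) and 9.62-fold (8.96 to 10.3) higher in cells chosen by S100A8 and SERPINA1. Single cells overlapped in part. Of the top 8% by each gene alone, S100A8 and SERPINA1 shared 31.3%, S100A8 and IGFBP6 22.7%, and SERPINA1 and IGFBP6 42.2%, where each set is 8% of all human cells.

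By the marker with the most UMIs, 203 chosen cells (58.3%) were led by SERPINA1, 100 (28.7%) by S100A8 and 45 (12.9%) by IGFBP6. S100A8-led cells numbered 53 in the young and 47 in the aged pool, or 25.0% and 34.6% of the chosen cells. SERPINA1-led cells numbered 130 and 73, and IGFBP6-led cells 29 and 16. A UMI count is not corrected for how well each transcript is captured, so this split orders cells and does not rank the genes.

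Against the remaining cells, the chosen cells had higher levels of S100A7, S100A9, MMP1, MMP9 and LAMA3, and lower levels of SCGB2A2, AGR2, MKI67 and TOP2A, in both pools. A gene was measured if it had at least 20 CPM in the higher set and at least 100 UMIs in each pool, and stood apart if it differed at least 1.5-fold in the same direction in both pools, with the 3 markers left out. Of 5726 measured genes, 781 (13.6%) were higher in the chosen cells and 1057 (18.5%) lower. The median log2 ratio over all measured genes was -0.16 in the young and -0.20 in the aged pool, and the ratios below stand against that shift. With TMM scaling the counts were 890 higher and 837 lower. The contrast is the one that chose the cells, so these counts describe them and are not a test.

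Among the 12 genes furthest above the remaining cells in both pools, 3 encode products of the epidermal barrier or its alarmins. S100A7, psoriasin, an antimicrobial S100 protein of inflamed skin, had 2622 CPM in young chosen cells against 77.8 in young remaining cells, and 1897 against 52.1 in the aged pool. It was thus 33.7-fold (32.8 to 34.7) and 36.4-fold (35.1 to 37.8) higher, although 49.5% and 51.5% of chosen cells had no S100A7 UMI. CRCT1 and LCE3D, genes of the epidermal differentiation complex, leaned on single cells: 1 cell held 49.8% of the CRCT1 UMIs of young chosen cells, and 1 cell held 31.5% of those of LCE3D. CRCT1 was 40.7-fold higher in the young (20.6-fold without that cell) and 16.9-fold in the aged pool, and LCE3D 21.3-fold and 16.2-fold. CLDN14, a tight junction claudin, was at 43.3 against 0.773 CPM and at 25.6 against 1.21 CPM, and was seen in 18.9% and 13.2% of chosen cells.

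Another 4 of the 12 act in the extracellular matrix. MMP1, interstitial collagenase, had 469 CPM in young chosen against 34.7 in young remaining cells (13.5-fold, 12.9 to 14.2), and 606 against 30.8 in the aged pool (19.7-fold, 18.7 to 20.8). MMP9, gelatinase B, had 732 against 47.7 and 655 against 60.3 CPM, and was seen in 67.0% of young and 64.0% of aged chosen cells. COL5A3, a fibrillar collagen chain, was 17.8-fold and 20.2-fold higher, and HAS2, which makes hyaluronan, 12.9-fold and 13.8-fold. All 4 were named because they lay far above the remaining cells in both pools, so that direction is no separate result. COL5A3 (3.68 and 2.40 CPM) and HAS2 (6.92 and 7.30 CPM) were under the minimum of 20 CPM in young and aged remaining cells.

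CSF3, the neutrophil growth factor G-CSF, had 103 CPM in young chosen cells against 6.26 in young remaining cells and 107 against 3.95 in the aged pool, and was seen in 25.5% and 26.5% of chosen cells. TREM1, an amplifying receptor best known on neutrophils and monocytes, had 53.4 against 3.63 and 44.3 against 4.16 CPM. TM4SF19 was 13.1-fold and 14.8-fold higher, and AC110995.1, a gene on chromosome X with no symbol of its own in the files, 13.95-fold and 11.2-fold.

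The 12 genes furthest below the remaining cells included SCGB2A2, AZGP1 and KRT81. SCGB2A2, mammaglobin A, a secretoglobin typical of breast epithelium, had 5.83 CPM in young chosen cells against 340 in young remaining cells, and 1.89 against 242 in the aged pool. It was 58.3-fold (43.4 to 80.2) and 128-fold (67.5 to 280) lower, and 181-fold and 143-fold lower without each pool's top cell, the chosen cell with most UMIs of the gene. AZGP1, a secreted zinc-binding glycoprotein of luminal cells, was at 25.0 against 354 and 29.4 against 359 CPM. KRT81, a hair-type keratin expressed in many breast cancer lines, was at 109 against 2529 CPM in the young and 260 against 2463 CPM in the aged pool.

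The other 9 of the 12 were MYBPC1, FOXI1, LRRC26, TFCP2L1, MUC16, MACC1, ALDH1A1, KLK5 and RERG. FOXI1, a forkhead factor of ionocytes and intercalated cells, was 22.01-fold and 15.8-fold lower, on 9 and 8 UMIs in the chosen cells. TFCP2L1, a transcription factor, was 22.8-fold and 12.3-fold lower. MUC16, the CA125 mucin, and ALDH1A1, a retinal dehydrogenase used as a progenitor marker, were 19.4-fold and 18.0-fold lower in the young and 10.9-fold and 8.98-fold lower in the aged pool. KLK5, a skin kallikrein protease, was 8.54-fold and 13.6-fold lower. Values of KRT81, KRT6A, S100A7, SPRR2A and LCE3D, which have near-identical copies elsewhere in the genome, are uncertain to the extent that reads of the copies were split or dropped.

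**Figure D2:**
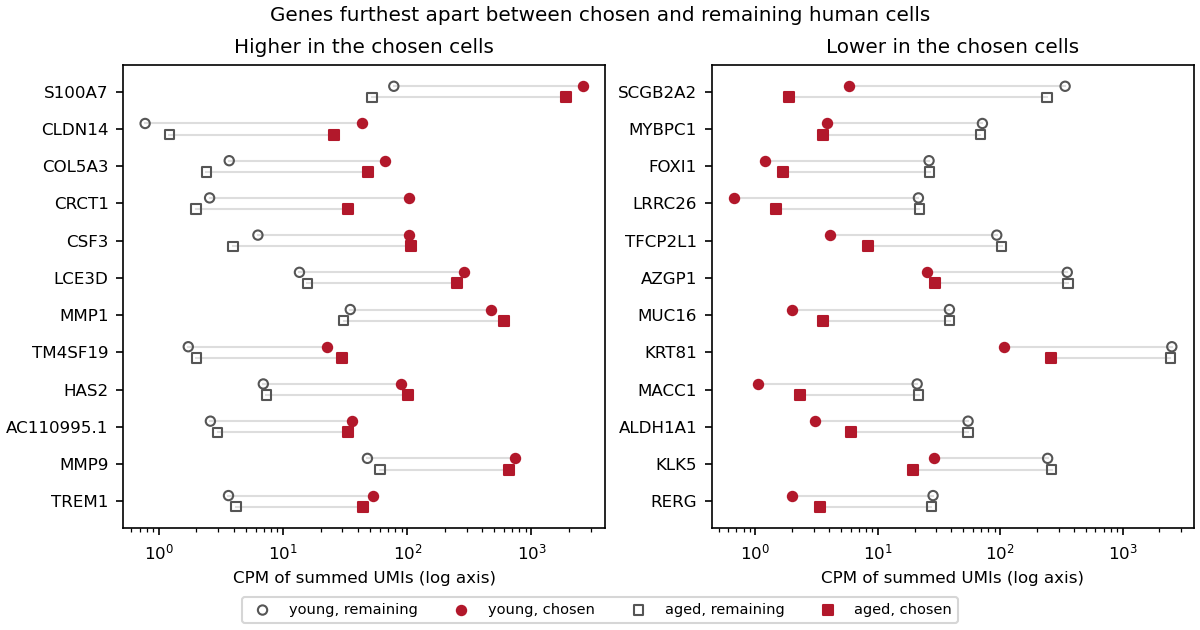
Pooled CPM (x axis, log scale) of the 12 genes furthest above and the 12 furthest below the remaining cells. Filled red symbols are chosen and open symbols remaining cells, circles the young and squares the aged pool. S100A7 lies at 2622 and 1897 CPM in chosen cells against 77.8 and 52.1, and SCGB2A2 at 5.83 and 1.89 against 340 and 242.

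S100 genes did not all go one way. Of 11 measured genes of the S100 list, 5 were higher, 2 lower and 4 neither. S100A9, the partner of S100A8, had 7515 CPM (7453 to 7577) against 1199 in the young pool and 7863 (7783 to 7943) against 987 in the aged pool. The remaining cells held 62.9% and 68.3% of the S100A9 UMIs, and 86.2% and 83.4% of these cells had at least 1. S100A8 took part in the choice of cells and S100A9 did not, so their restriction to the chosen cells cannot be compared. S100A2, a p63 target of basal cells, was 2.05-fold and 2.17-fold higher and S100A11 2.14-fold and 2.38-fold. S100A4, linked to motility and mesenchymal change, was 3.22-fold (3.06 to 3.402) and 5.13-fold (4.72 to 5.59) lower, and S100P was 1.73-fold and 2.74-fold lower.

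Most S100A genes lie together with the SPRR, LCE and involucrin genes in the epidermal differentiation complex on chromosome 1. Between S100A10 and S100A1 (GRCh38 chr1:151982915-153632039, GENCODE annotation, not necessarily the authors' version) 19 of 72 annotated genes were measured. Of these 13 were higher in both pools and 1, S100A4, lower, where over all measured genes 13.6% were higher and 18.5% lower. Several of the higher genes reached the minimum of 20 CPM only through the chosen cells. In young and aged remaining cells CRCT1 had 2.55 and 1.99 CPM, SPRR1B 12.4 and 9.78, and LCE3D 13.5 and 15.6. Their direction is thus fixed by the filter, and S100A8, which took part in the choice of cells, lies in this region. The count is a description only. In young chosen cells 1 cell held 63.8% of the SPRR2A, 49.8% of the CRCT1, 39.8% of the SPRR1B and 31.5% of the LCE3D UMIs. For S100A2, S100A7, S100A9, S100A11 and S100A16 that share was at most 7.16%. The markers themselves lie apart: S100A8 at this locus, SERPINA1 on chromosome 14 and IGFBP6 on chromosome 12.

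Squamous genes were split. Of 18 measured, 7 were higher and 6 lower. SPRR1B and SPRR2A, small proline-rich proteins of the cornified envelope, were 12.0-fold and 11.8-fold higher in the young and 8.97-fold and 9.96-fold in the aged pool. Single cells weighed heavily: 1 cell held 39.8% of the SPRR1B and 63.8% of the SPRR2A UMIs of young chosen cells. Without each pool's top cell SPRR1B was 7.30-fold and 7.23-fold higher and SPRR2A 4.32-fold and 4.62-fold, and SPRR2A was above the remaining cells in 3 of 5 hashing tag sets. KLK5 and CALML5, a calmodulin-like protein of differentiating keratinocytes, were lower, CALML5 at 8.61 against 238 and 28.7 against 231 CPM. Among genes picked after their values were seen, KRT6A, a keratin of wounded epidermis, was 6.18-fold and 6.75-fold higher, and KRT16 and KRT10 were not apart. A count of genes of the squamous programme therefore did not give 1 direction.

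Basal and myoepithelial genes were mostly higher: 11 of 18 measured were higher and 2 lower, with a median log2 ratio of 1.35 in the young and 1.23 in the aged pool. LAMA3 and LAMB3 encode chains of an anchoring laminin of epithelial basement membrane. LAMA3 had 674 against 68.9 CPM in the young and 587 against 59.9 in the aged pool (9.78-fold, 9.41 to 10.2, and 9.80-fold, 9.35 to 10.3). LAMB3, looked up after the values were seen, was 4.84-fold and 4.43-fold higher. The basal keratins were lower or not apart. KRT15 was 2.06-fold and 1.98-fold lower, KRT5 2.81-fold and 1.81-fold lower, and KRT14 and KRT17, looked up after the values were seen, were not apart.

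Luminal genes were mostly lower, with 12 of 18 lower and 2 higher (median log2 ratio -1.14 and -1.03). AGR2, a disulfide isomerase of secretory epithelium, was 7.19-fold and 3.496-fold lower, and KRT23 6.62-fold and 4.22-fold. In the young and aged pool 1 chosen cell held 54.7% and 77.5% of the chosen cells' AGR2 UMIs. Without each pool's top cell AGR2 was 15.8-fold and 15.3-fold lower, and KRT23 8.27-fold and 7.79-fold. ALDH1A3 and ANXA1 were the 2 higher genes, at 1.86-fold and 1.67-fold in the young and 1.52-fold and 1.62-fold in the aged pool. In the Notch list, 4 of 7 measured genes were lower and 1 higher. JAG1, a Notch ligand, was 4.17-fold and 3.70-fold higher, while NOTCH1, its receptor, was 2.58-fold and 3.06-fold lower.

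Matrix remodelling genes included 18 higher and 2 lower of 27 measured, the largest list median among those described in the young pool (1.61, and 1.09 in the aged pool). In the epithelial-mesenchymal list 10 of 16 were higher and 1, S100A4, lower (median 1.57 and 1.21). SNAI2, a repressor of epithelial genes, was 4.14-fold and 3.60-fold higher, and GJA1, connexin 43, 3.91-fold and 5.18-fold. Cathepsin D (CTSD) was 2.76-fold and 2.98-fold lower, and MMP7, an epithelial matrix protease, 2.60-fold and 7.48-fold lower. The proteases thus differed in direction among themselves, with MMP1 and MMP9 higher and MMP7, CTSD and KLK5 lower.

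Of 19 measured serpins and other inhibitors, SERPINA1 left out, 11 were higher and 1 lower. TIMP1, which inhibits the matrix metalloproteinases, had 5525 CPM against 834 and 5759 against 775. SLPI, like SERPINA1 an inhibitor of neutrophil elastase, was the lower one, at 264 against 830 CPM in the young and 416 against 768 in the aged pool. PI3, elafin, another elastase inhibitor, was at 1648 against 2899 and 1720 against 2210 CPM and not apart.

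Of 15 measured acute phase and STAT3 target genes 7 were higher and none lower. OSMR, the oncostatin M receptor, was 4.26-fold and 4.00-fold higher and TNFAIP6, a hyaluronan-binding protein, 4.26-fold and 3.85-fold. In the NF-kB and cytokine list 7 of 21 were higher and 3 lower. IL24, an IL-10 family cytokine, was 4.89-fold (4.51 to 5.30) and 11.8-fold (10.9 to 12.7) higher, whereas CXCL2, a neutrophil chemokine, was 2.61-fold and 2.21-fold lower. CXCL8, another neutrophil chemokine, picked after its value was seen, went the other way and was 2.79-fold and 2.07-fold higher. IL1RN, the IL-1 receptor antagonist, picked after its value was seen, was 9.97-fold and 9.41-fold higher.

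Of 18 measured EGFR genes 10 were higher and 3 lower. HBEGF and AREG, ligands of the receptor, were 6.89-fold and 4.25-fold higher in the young and 6.32-fold and 5.08-fold in the aged pool. ERBB2 and ERBB3, coreceptors of EGFR, were 2.30-fold and 2.27-fold lower in the young and 2.21-fold and 2.03-fold in the aged pool. In the IGF list 3 of 10 were higher and 2 lower, with IGFBP6 left out. IGFBP3 had 1268 against 278 and 1167 against 295 CPM, while IGFBP7 was 4.88-fold and 5.48-fold lower. Binding proteins of the IGF family therefore did not share a direction.

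The cell cycle list had the lowest median: all 27 measured proliferation genes were lower (median log2 ratio -1.88 young, -2.16 aged), and 21 of them with every cell weighted equally. A gene counted as measured if either set reached the minimum. Within the chosen cells alone only 7 of the list did. Many thus entered through the remaining cells, where they are high, and their direction is in part fixed by the filter. MKI67, a nuclear protein of cycling cells, had 21.5 CPM in young chosen cells against 116, and 12.6 against 114 in the aged pool. TOP2A, the topoisomerase of dividing cells, had 14.2 against 80.5 and 12.6 against 75.1. Without each pool's top cell MKI67 was at 12.6 and 8.46 CPM and TOP2A at 6.83 and 8.02 CPM in the chosen cells. After thinning, MKI67 was seen in 1.89% (0.516 to 4.76) of young chosen against 9.83% of remaining cells, and in 2.96% (0.813 to 7.41) against 10.7% in the aged pool, with 0.179% and 0.290% in mouse cells. Unthinned, the shares were 9.43% against 32.9% and 7.35% against 30.8%. Of 16 measured genes of the senescence and CDK inhibitor list 9 were higher and 3 lower. CDKN1A, p21, looked up after the values were seen, was 1.89-fold and 1.97-fold higher, and LMNB1, a nuclear lamin that is lost in senescence and low in non-cycling cells, was 5.75-fold and 9.74-fold lower.

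In the hypoxia and glycolysis list 16 of 30 were higher and none lower. ANGPTL4 was 5.61-fold and 4.74-fold higher and EGLN3, an oxygen-sensing prolyl hydroxylase, 4.58-fold and 5.33-fold, while ENO1 was at 1034 against 1025 and 968 against 1016 CPM. Of the unfolded protein and integrated stress list 8 of 19 were higher and 1 lower. HMOX1, haem oxygenase 1, was 11.9-fold and 9.51-fold higher (6.08-fold and 7.25-fold without each pool's top cell, which held 49.5% of the young UMIs), in a detoxification list with 6 of 15 higher and 1 lower. Among 35 oxidative phosphorylation genes 4 were lower and none higher, where 18.5% of all measured genes were lower, a larger share. With TMM scaling, or with every cell weighted equally, 1 of the list was lower. Of 13 mitochondrially encoded genes none was apart, with a median of -0.35 and -0.46. HLA class I genes were higher in 4 of 9 and lower in 1, HLA-B by 2.04-fold and 1.86-fold. Genes of the immediate early list, which tissue dissociation can raise, were higher in 5 and lower in 5 of 25. Over all measured genes 13.6% were higher and 18.5% lower, and all counts of list genes against the remaining cells stand against these shares.

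**Figure D3:**
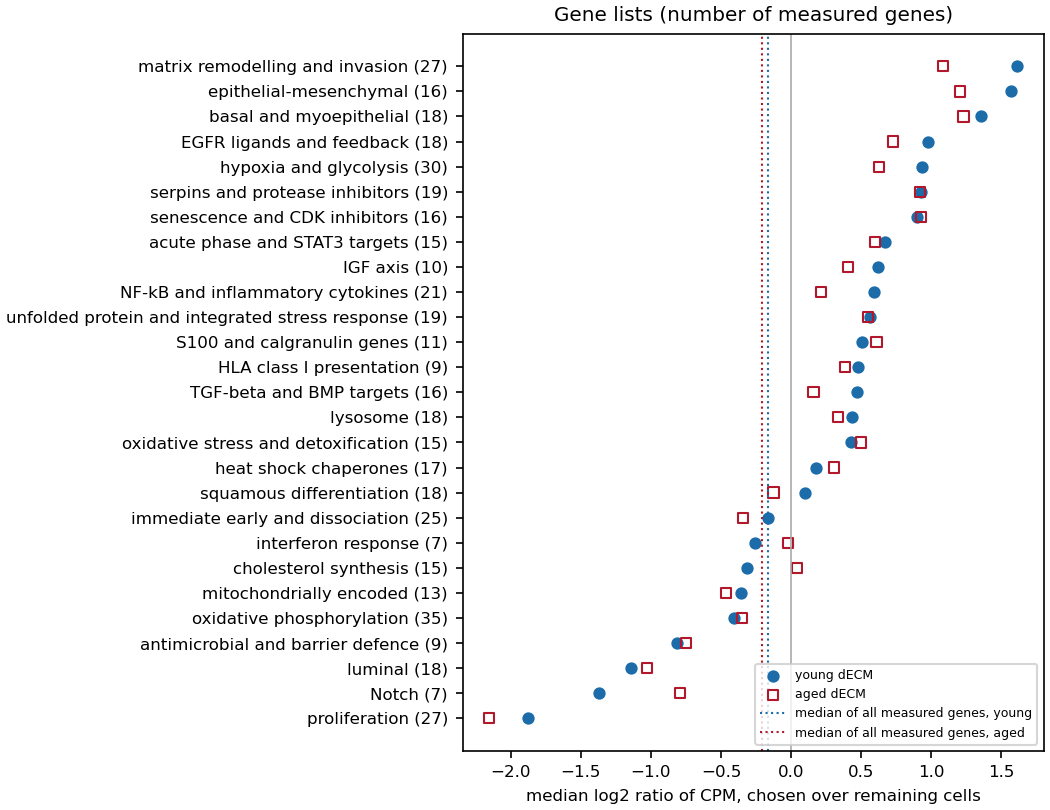
Median log2 ratio of CPM, chosen over remaining cells (x axis), for the gene lists with at least 5 measured genes (y axis, number measured in brackets), filled circles for the young and open squares for the aged pool. Dotted lines are the medians over all measured genes, -0.16 and -0.20. Matrix remodelling lies at 1.61 and 1.09 and proliferation at -1.88 and -2.16.

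Upstream sequences are shown for S100A8, SERPINA1 and those genes looked at singly whose sequence held a match to AP-1, C/EBP or STAT motifs. They are the 250 bases before the start site in the RefSeq table (GRCh38.p14), 5′ to 3′ on the gene's strand, with matches on either strand in capitals. The motifs searched were AP-1 TGANTCA, C/EBP TTGCNNAA and STAT TTCNNNGAA.
S100A8 upstream: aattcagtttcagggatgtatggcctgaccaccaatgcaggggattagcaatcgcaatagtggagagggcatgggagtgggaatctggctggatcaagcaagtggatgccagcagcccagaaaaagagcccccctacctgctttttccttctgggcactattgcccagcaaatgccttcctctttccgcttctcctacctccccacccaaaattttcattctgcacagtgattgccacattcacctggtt
SERPINA1 upstream: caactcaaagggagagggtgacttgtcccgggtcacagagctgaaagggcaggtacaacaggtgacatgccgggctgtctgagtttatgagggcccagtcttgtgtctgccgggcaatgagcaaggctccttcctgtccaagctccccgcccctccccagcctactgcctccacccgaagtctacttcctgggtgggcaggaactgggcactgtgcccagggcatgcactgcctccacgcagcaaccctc
LAMA3 upstream: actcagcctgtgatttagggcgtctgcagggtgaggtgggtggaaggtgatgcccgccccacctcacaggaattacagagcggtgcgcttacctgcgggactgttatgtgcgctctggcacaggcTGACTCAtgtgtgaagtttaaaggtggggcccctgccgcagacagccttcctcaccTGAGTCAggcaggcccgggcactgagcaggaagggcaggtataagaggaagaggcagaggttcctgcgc
TM4SF19 upstream: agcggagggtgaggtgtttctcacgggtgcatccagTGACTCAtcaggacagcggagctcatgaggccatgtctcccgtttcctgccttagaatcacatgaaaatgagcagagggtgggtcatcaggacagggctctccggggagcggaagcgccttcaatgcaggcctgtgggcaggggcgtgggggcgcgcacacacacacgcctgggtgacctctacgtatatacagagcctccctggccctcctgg
TREM1 upstream: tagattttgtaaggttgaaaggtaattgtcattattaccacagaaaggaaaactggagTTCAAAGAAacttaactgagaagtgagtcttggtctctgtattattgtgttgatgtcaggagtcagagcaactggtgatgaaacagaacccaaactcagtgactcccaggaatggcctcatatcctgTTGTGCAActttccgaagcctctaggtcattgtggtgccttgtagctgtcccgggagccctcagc

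These windows are S100A8 chr1:153391189-153391438 (minus strand), SERPINA1 chr14:94390636-94390885 (minus strand), LAMA3 chr18:23872770-23873019 (plus strand), TM4SF19 chr3:196338389-196338638 (minus strand) and TREM1 chr6:41286683-41286932 (minus strand). The LAMA3 window lies inside the gene, with its start site 183.6 kb beyond the start of the longest annotated transcript and 25 bases from that of a shorter one (GENCODE), and it says nothing of the region before the gene. It held AP-1 matches that begin 125 and 69 bases before that start site, and TM4SF19 held 1 at 214 bases before it. TREM1 held a C/EBP match at 65 and a STAT match at 192 bases before the start. No match to these letters was found in the windows of S100A8, SERPINA1 or IGFBP6, which says nothing of the factors. The windows of S100A7, CLDN14, COL5A3, LCE3D, TIMP1 and S100A9 were also looked at, held no match and are not shown. The printed windows are thus picked by their matches. Over the genes in the table, AP-1 letters were in 8.47% of the windows of 614 matched higher genes, 3.64% of 852 matched lower genes, 4.11% of 4693 matched measured genes and 6.57% of all 35116 windows. C/EBP letters were in 5.21%, 5.87%, 5.52% and 9.05%, and STAT letters in 5.37%, 5.399%, 5.54% and 6.57%, of the same 4 sets. A match is a description of the sequence only.

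The lead groups took part in this profile to different degrees. Of the 781 genes higher in the chosen cells, 64.5% were at least 1.5-fold above the remaining cells in both pools in S100A8-led, 95.6% in SERPINA1-led and 73.8% in IGFBP6-led cells, and 400 (51.2%) in each of the 3. Of the 1057 lower genes, 480 (45.4%) were below by as much in each. Over all 5726 measured genes these are 6.99% and 8.38%. The genes were called on the sum of the same cells, of which most are SERPINA1-led, so these shares are a description only. TIMP1 was one of those shared: against 834 CPM in young remaining cells it had 5171 CPM in S100A8-led, 5764 in SERPINA1-led and 5090 in IGFBP6-led cells, and 4725, 6353 and 6252 against 775 in the aged pool.

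The alarmin genes did not spread evenly over the lead groups. S100A7 had 7622 CPM in young S100A8-led cells, 1095 in SERPINA1-led and 295 in IGFBP6-led cells, and 4681, 413 and 72.4 in the aged pool. S100A9 had 19564 CPM, 3781 and 2158 in the young and 16688, 3268 and 1578 in the aged pool. Between S100A8-led and SERPINA1-led cells 4393 genes were measured. Of these 57 (1.30%) were higher in S100A8-led cells in both pools and 159 (3.62%) lower.

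The 12 genes furthest above in S100A8-led cells included S100A7 (6.96-fold young, 11.3-fold aged), S100A9 (5.17-fold, 5.11-fold) and SLPI (4.58-fold, 4.55-fold), and the keratinocyte genes SPRR2A, LY6D and SBSN. SBSN, suprabasin, had 257 against 51.7 CPM in the young and 269 against 10.4 in the aged pool, but 1 cell held 41.2% and 47.4% of the UMIs of the S100A8-led cells, and for SPRR2A 1 cell held 84.9% and 63.8%. KRT81 was at 321 against 42.2 and 660 against 43.6 CPM, below the 2529 and 2463 CPM of remaining cells in both lead groups. The others of the 12 were KLK10, FGFBP1, SPTSSB, RARRES1 and KRT23. All of these but RARRES1 also lay below the remaining cells in both lead groups and both pools. SLPI had 595 and 829 CPM in young and aged S100A8-led cells against 830 and 768 in remaining cells, and LY6D 413 and 367 against 365 and 330. A place among the 12 thus did not mean a level above the remaining cells.

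The 12 genes furthest above in SERPINA1-led cells included the matrix genes VCAN, POSTN, COL4A1 and COL4A2. VCAN, the proteoglycan versican, had 122 CPM against 31.2 in S100A8-led cells of the young pool (3.90-fold, 2.98 to 5.19) and 159 against 47.0 in the aged pool (3.38-fold, 2.65 to 4.35). POSTN, periostin, had 56.2 against 4.23 and 39.2 against 7.63 CPM, and COL4A1, a basement membrane collagen, 60.1 against 18.0 and 61.7 against 18.8. SERPINE2, a serpin that inhibits thrombin and urokinase, had 513 against 185 and 328 against 116 CPM. IL11, an IL-6 family cytokine, was 2.41-fold (1.62 to 3.71) and 2.75-fold (1.90 to 4.08) higher. VIM, chosen after its values were seen, had 5419 against 2731 and 5350 against 2529 CPM. TBX3, a T-box transcription factor, was 4.42-fold and 3.22-fold higher, SLC5A3, an inositol transporter, 3.60-fold and 2.62-fold, and CRCT1, with 57.1% of its young SERPINA1-led UMIs in 1 cell, 4.04-fold and 2.56-fold. AKAP12 and ADAM19 were also among the 12. IGFBP5 stood first by fold, on 1 UMI in young S100A8-led cells and with 90.7% of its aged SERPINA1-led UMIs in 1 cell.

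**Figure D4:**
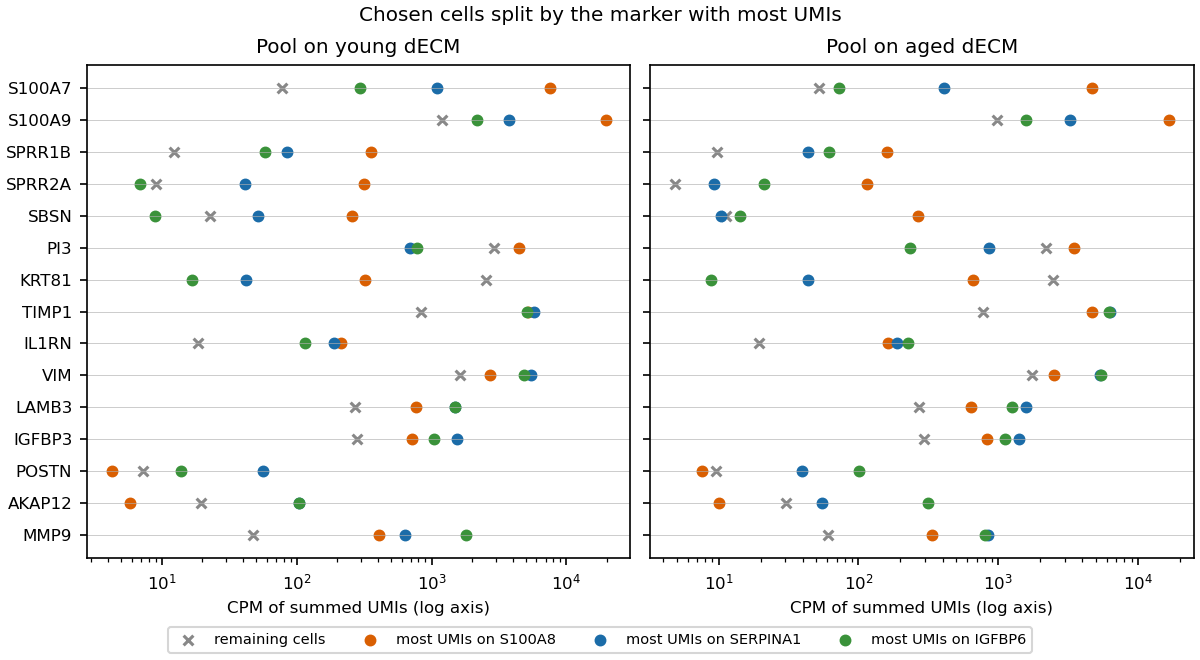
Pooled CPM (x axis, log scale) of genes picked after their values were seen, in chosen cells split by the marker with most UMIs (coloured dots) and in remaining cells (crosses), in the young and the aged pool. S100A7 and S100A9 lie highest in S100A8-led cells (7622 and 4681 CPM for S100A7), VIM and POSTN higher in SERPINA1-led cells, and TIMP1 is within 4725 to 6353 CPM in all 3 groups.

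Other sets of human cells of the same size overlapped with the chosen cells to different degrees. Among the 348 cells with the largest share on MMP1, MMP9 and MMP10, 136 (39.1% of both sets) were chosen cells, among those on SPRR1B, SBSN and LY6D 33 (9.48%), and among those on MKI67 and TOP2A 2 (0.575%). Of all human cells 8% were chosen cells, so the share of the set on SPRR1B, SBSN and LY6D was near that of all cells. LY6D weighed most in that set: in remaining cells it had 365 and 330 CPM in the young and aged pool. SPRR1B had 12.4 and 9.78 CPM there and SBSN 22.7 and 11.2. The matrix protease set took in 57.8% of the IGFBP6-led, 39.9% of the SERPINA1-led and 29% of the S100A8-led chosen cells.

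Markers of cells other than tumour epithelium were low. Of 9 human myeloid markers none reached the minimum, 3 were at 0 in chosen cells of both pools, and their summed level was 6.23 CPM in young chosen against 3.25 in remaining cells and 7.76 against 3.33 in the aged pool. Hepatocyte markers, of which 2 of 4 were at 0, summed to 0.265 and 0.629 CPM in chosen cells, and 5 human fibroblast and endothelial markers to 17.4 and 18.5 CPM against 11.8 and 13.4. Mouse genes made up 1.66% of the young and 2.04% of the aged chosen cells' gene UMIs, against 1.84% and 1.71% in remaining cells. Mouse S100a8, counted on its own rows, had 349 UMIs per 1000000 gene UMIs in young chosen cells against 455 in remaining cells, and 424 against 340 in the aged pool. Summed over 7 mouse neutrophil genes, the levels were 1132 against 1455 and 1292 against 1103 on the same scale. Mouse fibroblast genes summed to 15.9 against 16.3 in the young and 89.8 against 43.7 in the aged pool, and to 195 in aged S100A8-led cells. The part of host RNA in the differences between pools was not tested.

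The chosen cells made up 9.59% (8.40 to 10.9) of the human cells of the young pool and 6.36% (5.36 to 7.48) of the aged pool, a ratio of 1.51. The ratio did not hold over all ways of counting. Hashing tags gave 1 tag to 930 young and 1018 aged human cells, and among these the chosen cells were 10.1% (8.25 to 12.2) in the young and 10.7% (8.87 to 12.8) in the aged pool. Cells with no single tag had 9.22% (7.69 to 10.9) chosen cells in the young pool and 2.41% (1.59 to 3.49) in the aged pool. The pools therefore differed in the untagged cells, and tagged cells were close to level.

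Tag sets within a pool were as far apart as the pools. In the young pool the share was 7.53% (3.82 to 13.1) of cells with H-HTO-3, 3.52% (2.13 to 5.44) with H-HTO-4 and 21.5% (14.8 to 29.6) with H-HTO-6. In the aged pool it was 11.8% (9.15 to 14.8) with H-HTO-2, 3.47% (1.40 to 7.01) with H-HTO-3 and 13.9% (9.29 to 19.7) with H-HTO-4. The other tag sets held 13 to 73 human cells and ran from 9.52% to 36.99% chosen cells. Aged chosen cells also carried more tag: their median was 930 hashing UMIs against 467 in aged remaining cells, and 19.9% of them had no single tag against 54.6%. In the young pool the medians were 475 and 391 and the untagged shares 55.7% and 58.2%. What each tag stands for is not given in the sources used here, and the part of tagging in the ratio was not tested. Antibody features other than the tags had 20 and 15 UMIs in all over the chosen cells and gave no surface protein values.

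**Figure D5:**
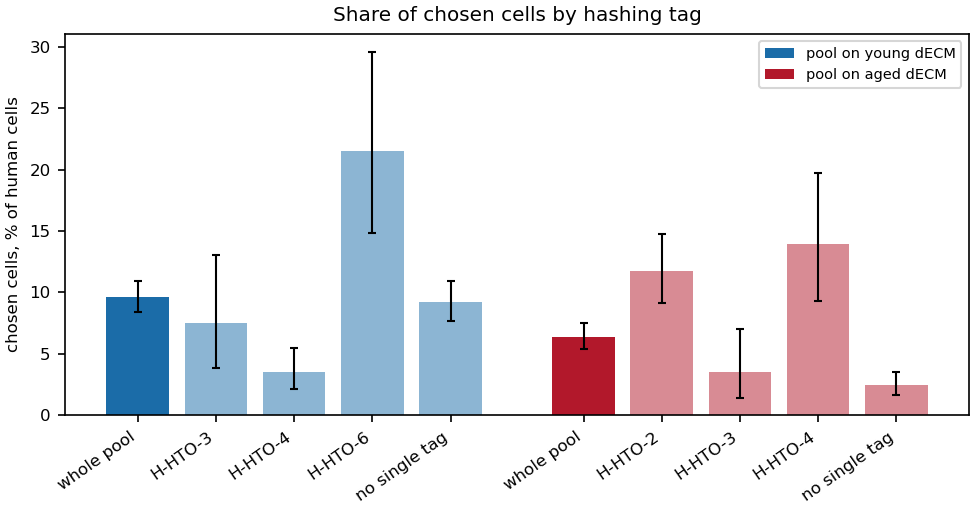
Chosen cells as a percent of human cells (y axis) in each whole pool, in hashing tag sets of at least 100 human cells, and in cells with no single tag. Bars are shares and lines exact 95% binomial intervals. The tag sets span 3.52% to 21.5% in the young and 3.47% to 13.9% in the aged pool, wider than the 9.59% and 6.36% of the pools.

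The named genes were also read within tag sets. These cells are part of the pools in which the genes were picked, so their direction is largely fixed and the values are a description. In the 5 sets with at least 100 human cells and at least 10 chosen cells, 11 of the 12 furthest higher genes were above the remaining cells of the same set in each of the 5, and CLDN14 in 3. Of the 12 furthest lower genes 11 were below in each of the 5, and KLK5 in 4. S100A7 ranged from 7.91-fold (young H-HTO-3) to 63.4-fold (young H-HTO-4). MMP1 was only 1.201-fold higher in young H-HTO-3 cells and 67.6-fold in aged H-HTO-4 cells.

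The chosen cells of the pools were then compared with each other. Of 5207 measured genes 35 (0.672%) were at least 1.5-fold higher in aged chosen cells and 63 (1.21%) lower, and the median log2 ratio was -0.03. The counts moved with the cells and weights used. They were 87 higher and 247 lower over cells with 1 tag, 105 and 133 with each cell weighted equally, 114 and 181 without SERPINA1-led cells, and 58 and 117 without aged H-HTO-2. Of the same 5207 genes 14 (0.269%) were apart between the pools in the remaining cells, and 6 of those 14 were among the 98 in the same direction. Among the markers, S100A8 was 1.03-fold, SERPINA1 1.21-fold and IGFBP6 1.17-fold higher in young chosen cells, against 1.55-fold, 1.5-fold and 1.51-fold over all human cells and 1.29-fold, 1.12-fold and 1.25-fold over the remaining cells.

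Several of the genes furthest apart between pools rested on 1 cell. SPINK5, a skin protease inhibitor, had 3.98 CPM in young and 38.8 in aged chosen cells (9.76-fold, 6.61 to 14.9), with 93.5% of the aged UMIs in 1 cell, and without each pool's top cell the ratio was 0.73. IGFBP5 (16.7 and 46.4 CPM, 87.8% in 1 aged cell) fell to a ratio of 0.481 in the same way. FGFBP1, a carrier of fibroblast growth factors, had 83.1 and 203 CPM (2.45-fold) and was 1.53-fold higher without the top cells, but lower in aged cells when the top 5% were chosen (log2 ratio -0.41). CALML5 had 8.61 and 28.7 CPM (3.34-fold, and 2.33-fold without), HPGD, which degrades prostaglandins, 21.7 and 53.1 (2.44-fold, and 1.60-fold without) and FAM3D 13.1 and 31.7 (2.41-fold, and 1.24-fold without). CALML5 turned lower in aged cells without S100A8-led cells (log2 ratio -1.23). FAM3D turned lower under 4 alternatives, down to a log2 ratio of -2.24 without S100A8 in the score.

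Lower in aged chosen cells were KRT75, APOD, CCL20, MMP7, SAA2 and CRCT1. APOD, a lipocalin apolipoprotein, had 67.4 and 13.6 CPM (4.95-fold, 3.82 to 6.51, and 3.76-fold without the top cells). MMP7 had 103 and 31.0 CPM (3.30-fold, 2.77 to 3.97), and SAA2, an acute phase protein, 25.6 and 7.76 (3.29-fold). KRT75, a hair follicle keratin, had 43.9 and 5.03 CPM, with 65.3% of the young UMIs in 1 cell. For CRCT1 (104 and 33.6 CPM) the value was 3.10-fold, and 2.05-fold without the top cells. CCL20, the chemokine ligand of CCR6, had 141 and 42.4 CPM (3.33-fold, 2.86 to 3.89), at 76.5 and 74.5 CPM in the remaining cells of the same pools.

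Of 27 measured matrix remodelling genes 1 was higher and 1 lower in aged chosen cells, of 30 hypoxia genes none higher and 1 lower, and of 18 EGFR genes none in either direction. For squamous genes 1 of 17 was higher and 4 lower. Of the 7 proliferation genes that reached the minimum in this comparison 3 were lower and none higher, with MKI67 at 21.5 CPM in young and 12.6 in aged chosen cells. In the young pool 1 cell held 42.0% of the MKI67 UMIs, and without each pool's top cell the levels were 12.6 and 8.46 CPM. After thinning, the share of chosen cells with MKI67 was 1.89% in the young and 2.96% in the aged pool.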

How the data were processed

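Per the submitters' processing notes, the authors' matrices were made with Cell Ranger 6.0.0 on GRCh38 and mm10. The deposited values are UMI counts of 36601 human genes, 32285 mouse genes and 52 antibody features, for 16965 young and 17757 aged barcodes (190 in both). Human cells had at least 90% of gene UMIs on human genes, at least 2000 gene UMIs and at most 20% mitochondrial UMIs. The members and gene lists were chosen with earlier results of these data known.

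Counts were summed per pool and set and scaled to CPM of human UMIs (numpy 2.4.6, scipy 1.17.1). Ratios and levels carry exact Poisson or conditional intervals and shares exact Clopper-Pearson intervals, at 95%. Reads were collapsed by UMI before deposit. Tags were assigned where the leading tag had at least 10 UMIs and at least 3 times those of the next. Doublet scores came from Scrublet in scanpy 1.11.5 per pool with an expected rate of 0.1, and the main values keep such cells. TMM factors came from edgeR 4.0.16, with no edgeR test. The gene calls were also run on simulated counts with known folds, drawn without spread between cells. That check says nothing of genes whose UMIs lie mostly in a single cell, nor of folds close to the threshold.

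Named genes are the 12 furthest higher and lower against the remaining cells by the smaller of the pools' folds, the 6 at each end between pools, up to 2 at each end of a list, and S100A8, SERPINA1, IGFBP6, S100A9, S100A7, MKI67 and TOP2A. Genes outside this rule are the other genes named by lead marker, the further laminin, keratin and S100 genes, and those said in the text to be picked after their values were seen. Alternatives varied the threshold, score, filters, scaling, cells and tag sets. Some genes that this rule names are not reported here.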

Additional observations from a re-analysis of the deposited data

Results flagged for a closer look

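CCL20 was the 1 gene that stood apart in opposite directions in the pools. In the young pool it was 1.84-fold higher in the chosen than in the remaining cells, and in the aged pool the ratio was 0.569. The difference between the pools was not tested, since there was 1 library for each. In the young pool 27.2% of the chosen cells' CCL20 UMIs lay in 1 cell. Without each pool's top cell CCL20 was 1.35-fold higher than in remaining cells in the young pool, which is under the 1.5-fold threshold. In the aged pool it was then 2.11-fold lower than in remaining cells. Between the chosen cells of the pools it was then 2.92-fold lower in aged than in young cells. Its direction also varied within a pool: the ratio to remaining cells was 6.61 in young H-HTO-3, 0.0358 in young H-HTO-4 and 1.88 in young H-HTO-6 cells, and 0.569 and 0.391 in aged H-HTO-2 and H-HTO-4 cells.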

How the results depend on the processing

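Genes apart between chosen and remaining cells kept their number (781 higher, 1057 lower) within 1.5 times under the alternatives run except at 2-fold (435 and 406) and at a minimum of 50 CPM (469 and 480), which call fewer genes by construction. They ranged over 751 to 790 and 1013 to 1078 without each hashing tag set in turn. Of 729 recomputed ratios of 27 named genes, 287 moved out of their counting interval. None changed direction, which is no sign of stability, since most of these genes were picked for the size of their fold. The young over aged share was 1.001 with the threshold set within each pool, which fixes it, 0.988 over cells with 1 tag, and 1.41 to 2.15 without each tag set, the highest without aged H-HTO-2.

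The counts between pools (35 higher and 63 lower in aged chosen cells) were not stable. Higher and lower counts were 55 and 108 at a human share of at least 0.98, 87 and 247 over tagged cells, 105 and 133 with each cell weighted equally, 8 and 12 at 2-fold, 11 and 24 at 50 CPM, 17 and 29 for the top 12%, and 62 and 107 when cells were chosen on a random part of their UMIs and read in the other. Lower genes were 152 for the top 5% and 40 without SERPINA1 in the score. Without each tag set they were 35 to 58 and 65 to 117, the latter without aged H-HTO-2. Among alternatives chosen after seeing the data, 17 were higher without each gene's top cell, and the counts were 67 and 121 without S100A8-led and 114 and 181 without SERPINA1-led cells.

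Of 12 genes named between pools, 5 changed sign somewhere (log2 aged over young). SPINK5 was -0.043 at a human share of at least 0.98, -0.81 without S100A8 in the score, -1.47 to 3.71 without each tag set (lowest without aged H-HTO-2), -0.45 without top cells and -3.12 without S100A8-led cells. FAM3D was -0.24 for the top 5%, -2.24 without S100A8 in the score, -0.052 with equal weights and -0.40 to 1.69 without each tag set (lowest without aged H-HTO-4). IGFBP5 was -1.58 to 2.16 without each tag set (lowest without aged H-HTO-4), -1.06 without top cells and -0.0082 without SERPINA1-led cells. FGFBP1 was -0.41 for the top 5% and CALML5 -1.23 without S100A8-led cells. Beyond what is said of top cells and of construction, the cause was not tested. With equal weighting the median of the heat shock list in the young pool and of the TGF-beta list in the aged pool changed sign, and with TMM that of the interferon list in the aged pool. No paired analysis was possible because there was 1 library for each group. With 136 aged chosen cells, genes under about 20 CPM rest on few UMIs.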
